A study of Mus musculus with 36 samples.

Results

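The synaptonemal complex and the meiotic chromosome axis are described here through 10 genes: Sycp1, Syce1, Syce2, Tex12, Sycp2, Sycp3, Hormad1, Hormad2, Smc1b and Stag3. They were chosen by name, with earlier results of these data known. All 10 were among the 19938 genes measured by a probe set with a single annotated symbol. Where a gene had more than 1 such probe set, the probe set with the highest mean stood for it, which concerned 1 gene, Hormad1. The genes lie on 9 chromosomes of the mouse assembly GRCm38.p6, with Sycp1 at chr3:102818499-102936100 and Sycp3 at chr10:88459587-88473236.

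In meiotic prophase the sister chromatids of each chromosome are held by meiotic cohesin, which contains SMC1B and STAG3 in place of their mitotic counterparts. SYCP2 and SYCP3 build the axial element along that cohesin core, and HORMAD1 and HORMAD2 load on unsynapsed axes and signal from them. SYCP1 dimers span the space between paired axes as the transverse filament, and SYCE1, SYCE2 and TEX12 belong to the central element that fixes them in the middle. In the mouse, germ cells of the fetal ovary enter meiosis from about the last stage sampled here. Germ cells of the fetal testis instead stop dividing and enter meiosis only after birth.

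Germ cells came from XX and XY gonads with an Oct4 reporter, from progeny of C57BL/6NJ on a mixed background, collected 11.5, 12.5 or 13.5 days post coitum (dpc). Supporting cells, the precursors of granulosa and Sertoli cells, came from XX gonads at the same 3 stages and XY gonads at 11.5 dpc with the transgene Tg(Sry-EGFP)92Ei in progeny of CD-1. At 12.5 and 13.5 dpc, XY supporting cells instead came from Tg(Sox9-cre/ERT2)1Msan/J in progeny of C57BL/6. No gene was deleted and no agent was given in any group, gonads of a sex were pooled, and the cells were sorted by flow cytometry with Oct4, Sry or Sox9 as the gene reported. Each of the 12 groups had 3 arrays, except XX germ cells at 12.5 dpc, where 2 were used because the array labelled replicate 3 was left out by rule. The labels do not say whether arrays of a group came from separate pools. If they did not, the p-values reflect technical spread alone.

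The labels were checked on the 35 arrays used, with array medians of 6.54 to 7.01 (log2). The Y-linked gene Eif2s3y was at 8.82 to 10.2 in XY arrays, against 4.27 to 5.72 in XX arrays. The median of 8 germ cell markers lay between 9.71 and 10.83 in the 17 germ cell arrays, against 5.78 to 6.63 in the 18 arrays of supporting cells. That median was 5.95 in the array left out, and the median of 6 stromal markers was 10.29, against at most 7.45 in any germ cell array. Every value below is a log2 expression value of 1 probe set, so levels are compared between groups within a gene and not between genes. In pools of cells, fewer cells with a transcript and less transcript per cell cannot be told apart.

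The promoters are shown first because several of these genes share short motifs that germline promoters are known for. In somatic cells and germ cells before meiosis, a Polycomb-type complex that contains E2F6, MAX and MGA is known to hold many germline genes down through E2F and E-box sites, and STRA8 with MEIOSIN activates meiotic genes at the onset of prophase. The RefSeq promoter table (GRCm38.p6) held all 10 genes, in 12 windows, and the 250 bases before each annotated start were searched on both strands. The 6 sequences below are those of the transverse filament, of the genes with the biggest sex difference in germ cells (Tex12 and Syce1), of the gene without one (Sycp2), and of an axial and a cohesin gene. Capitals mark matches to the E-box CACGTG or to the E2F core GCGGGAA, which reads TTCCCGC where it lies on the other strand.
Sycp1, chr3:102936101-102936350, minus strand: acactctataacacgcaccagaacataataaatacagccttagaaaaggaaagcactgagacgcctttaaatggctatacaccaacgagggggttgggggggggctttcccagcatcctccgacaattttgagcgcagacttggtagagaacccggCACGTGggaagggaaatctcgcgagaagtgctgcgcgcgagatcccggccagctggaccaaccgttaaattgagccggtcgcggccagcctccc
Syce1, chr7:140787855-140788104, minus strand: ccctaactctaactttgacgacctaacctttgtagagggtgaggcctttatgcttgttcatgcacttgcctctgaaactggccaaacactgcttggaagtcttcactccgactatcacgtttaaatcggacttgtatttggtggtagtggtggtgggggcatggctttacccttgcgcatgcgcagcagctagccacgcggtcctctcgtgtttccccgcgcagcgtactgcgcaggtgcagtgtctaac
Tex12, chr9:50561269-50561518, minus strand: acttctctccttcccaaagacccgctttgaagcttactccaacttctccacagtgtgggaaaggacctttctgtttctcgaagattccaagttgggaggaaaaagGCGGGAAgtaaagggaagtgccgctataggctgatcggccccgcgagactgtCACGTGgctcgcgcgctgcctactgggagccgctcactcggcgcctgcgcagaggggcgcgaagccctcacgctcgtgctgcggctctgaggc
Sycp2, chr2:178407659-178407908, minus strand: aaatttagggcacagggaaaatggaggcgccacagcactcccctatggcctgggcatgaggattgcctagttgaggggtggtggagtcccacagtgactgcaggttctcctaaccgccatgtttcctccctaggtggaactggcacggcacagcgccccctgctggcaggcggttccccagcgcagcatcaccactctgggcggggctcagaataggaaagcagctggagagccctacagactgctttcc
Sycp3, chr10:88459337-88459586, plus strand: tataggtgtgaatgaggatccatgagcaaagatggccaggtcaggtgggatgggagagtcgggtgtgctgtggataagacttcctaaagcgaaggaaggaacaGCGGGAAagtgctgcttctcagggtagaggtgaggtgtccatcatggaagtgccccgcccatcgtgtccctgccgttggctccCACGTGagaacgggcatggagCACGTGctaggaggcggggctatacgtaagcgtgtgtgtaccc
Smc1b, chr15:85131958-85132207, minus strand: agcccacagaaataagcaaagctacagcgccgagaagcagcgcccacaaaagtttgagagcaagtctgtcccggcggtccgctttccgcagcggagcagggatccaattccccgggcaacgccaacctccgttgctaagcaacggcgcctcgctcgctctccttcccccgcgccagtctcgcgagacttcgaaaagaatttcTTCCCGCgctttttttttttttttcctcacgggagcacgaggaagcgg

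The E-box was found in the windows of 6 of the 10 genes (Sycp1, Syce2, Tex12, Sycp3, Hormad1 and Stag3), and 6.02% of the 32851 promoter windows in the table held it. The E2F core was found in those of 5 (Syce2, Tex12, Sycp3, Hormad1 and Smc1b), against 3.82% of all windows. Some annotated starts lie inside the span of their gene, so the window overlaps it: by all 250 bases for Stag3, by 147 for the later Syce2 window, by 118 for Sycp2, by 116 for Hormad2 and by 2 for the later Hormad1 window. The matches of Stag3, Hormad2 and the later Syce2 window therefore lie within the annotated gene. For Syce2 both lay only in the window of the later of 2 annotated starts. The STRA8 motif CNCCTCAG, which is not marked in the sequences above, was found in windows of Syce2 and Hormad2, where 6.42% of all windows had it. In the later Syce2 window it overlapped the E2F match, and Syce1 and Sycp2 had none of the 3 motifs in these windows. Observed over expected CpG ran from 0.307 in Sycp2 to 1.21 in Smc1b with a median of 0.703 over the 12 windows, against a median of 0.373 and an upper quartile of 0.723 over all windows. The shares above count single windows, while a gene was counted if any of its windows held the motif. CACGTG and GCGGGAA contain CpG, and all windows are not matched to these windows in CpG. The shares are therefore not a like background for the gene counts. A match describes these letters and does not show binding, and no binding or methylation was measured.

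**Figure D1:**
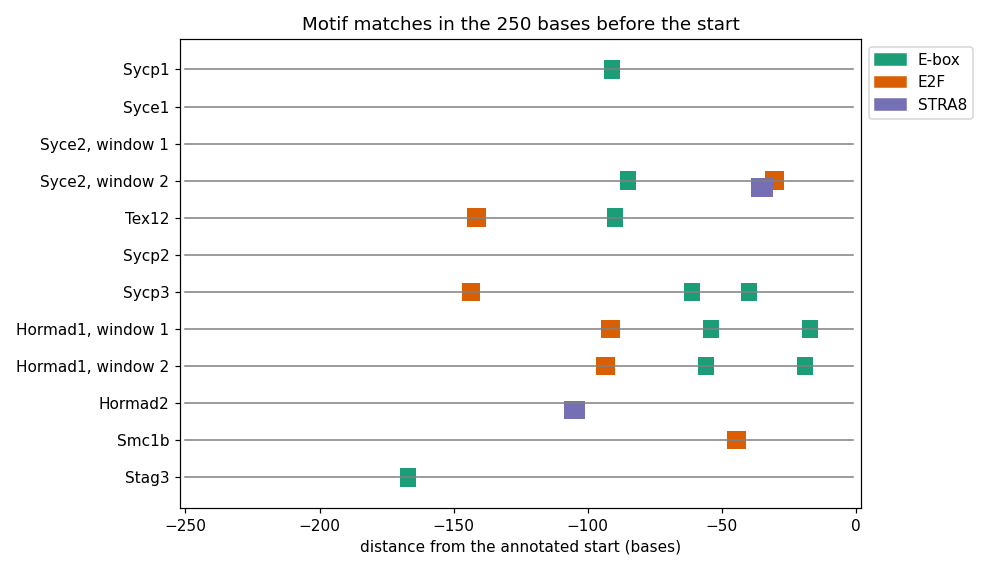
Positions of E-box, E2F and STRA8 motif matches in the 250 bases before the annotated start of each gene, as distance from the start in bases. Each grey line is a promoter window. Sycp3 and Hormad1 hold 2 E-boxes and an E2F core each, and the lines of Syce1, Sycp2 and the first Syce2 window are empty.

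In germ cells, 9 of the 10 genes were higher in XX than in XY at 13.5 dpc after Benjamini-Hochberg adjustment over all genes, where 3.93% of the 19938 genes were higher. The gene that did not pass was Sycp2, at 0.05 ± 0.24 (SE) on the log2 scale with an adjusted p of 0.947. The median XX minus XY difference of the 10 genes was 1.12, against -0.07 over all genes. At 12.5 dpc none of the 10 passed, where 1.8% of all genes differed in either direction, and 1 of the 10 had an unadjusted p under 0.05. At 11.5 dpc none passed either, with 0.0251% of all genes called and 2 of the 10 at an unadjusted p under 0.05. The medians of the 10 genes were 0.24 at 12.5 dpc and 0.02 at 11.5 dpc. At 13.5 dpc 1 of the 8 germ cell markers was higher and 3 were lower in XX than in XY germ cells, and the log2 of their summed level ran from 13.3 to 13.6 in XX and from 13.4 to 13.7 in XY. The array medians of the supporting cell markers ran from 6.76 to 7.22 in XX and from 6.64 to 7.20 in XY germ cells at that stage. Their part in the result was not tested.

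**Figure D2:**
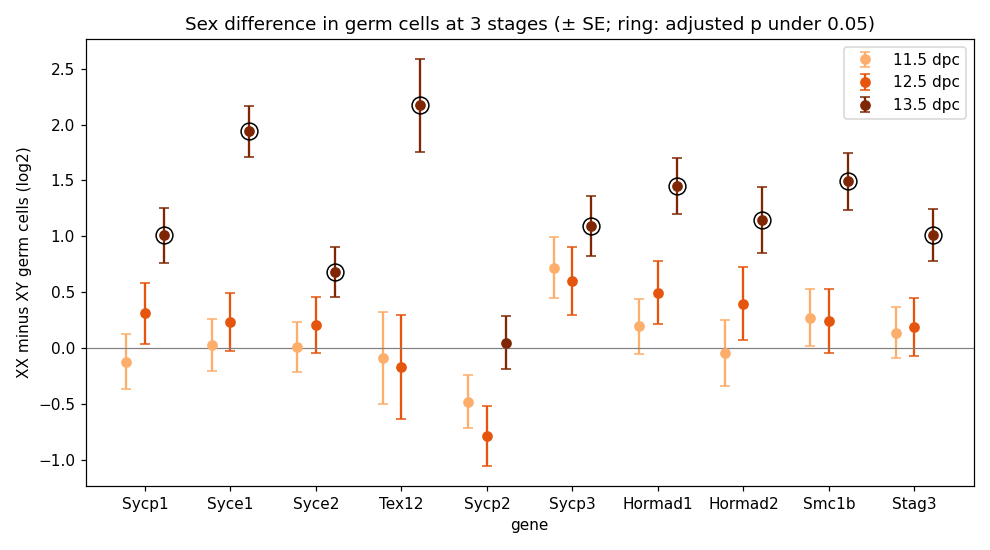
XX minus XY difference in germ cells for each gene, in log2, at each of the 3 stages. Points are fitted differences, bars are 1 SE to each side, and rings mark an adjusted p under 0.05. The 9 ringed points are all at 13.5 dpc and lie between 0.68 (Syce2) and 2.17 (Tex12).

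Over the time course, Sycp1, Sycp2 and Tex12 rose in both sexes. They had the 3 smallest germ minus supporting differences at 11.5 dpc, 0.65 to 1.20 in XX and 1.08 to 1.67 in XY (log2). Sycp3, 3.81 above supporting cells in XX at 11.5 dpc, also rose in both sexes. Syce1, Hormad1, Hormad2, Smc1b and Stag3 were 2.18 to 4.76 above supporting cells in XX at 11.5 dpc and rose in XX. Their differences in XY did not pass in the values as deposited. Syce2 stayed near its first level in XX germ cells and was also present in supporting cells. By count, 9 of 10 rose in XX germ cells between 11.5 and 13.5 dpc (5.83% of all genes did), and 4 of 10 rose in XY germ cells (2.9% of all genes). In XY germ cells 1 of 10, Syce2, fell, as did 4.2% of all genes. The medians of the 10 genes were 1.81 in XX and 0.63 in XY, against -0.14 and -0.03 over all genes.

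**Figure D3:**
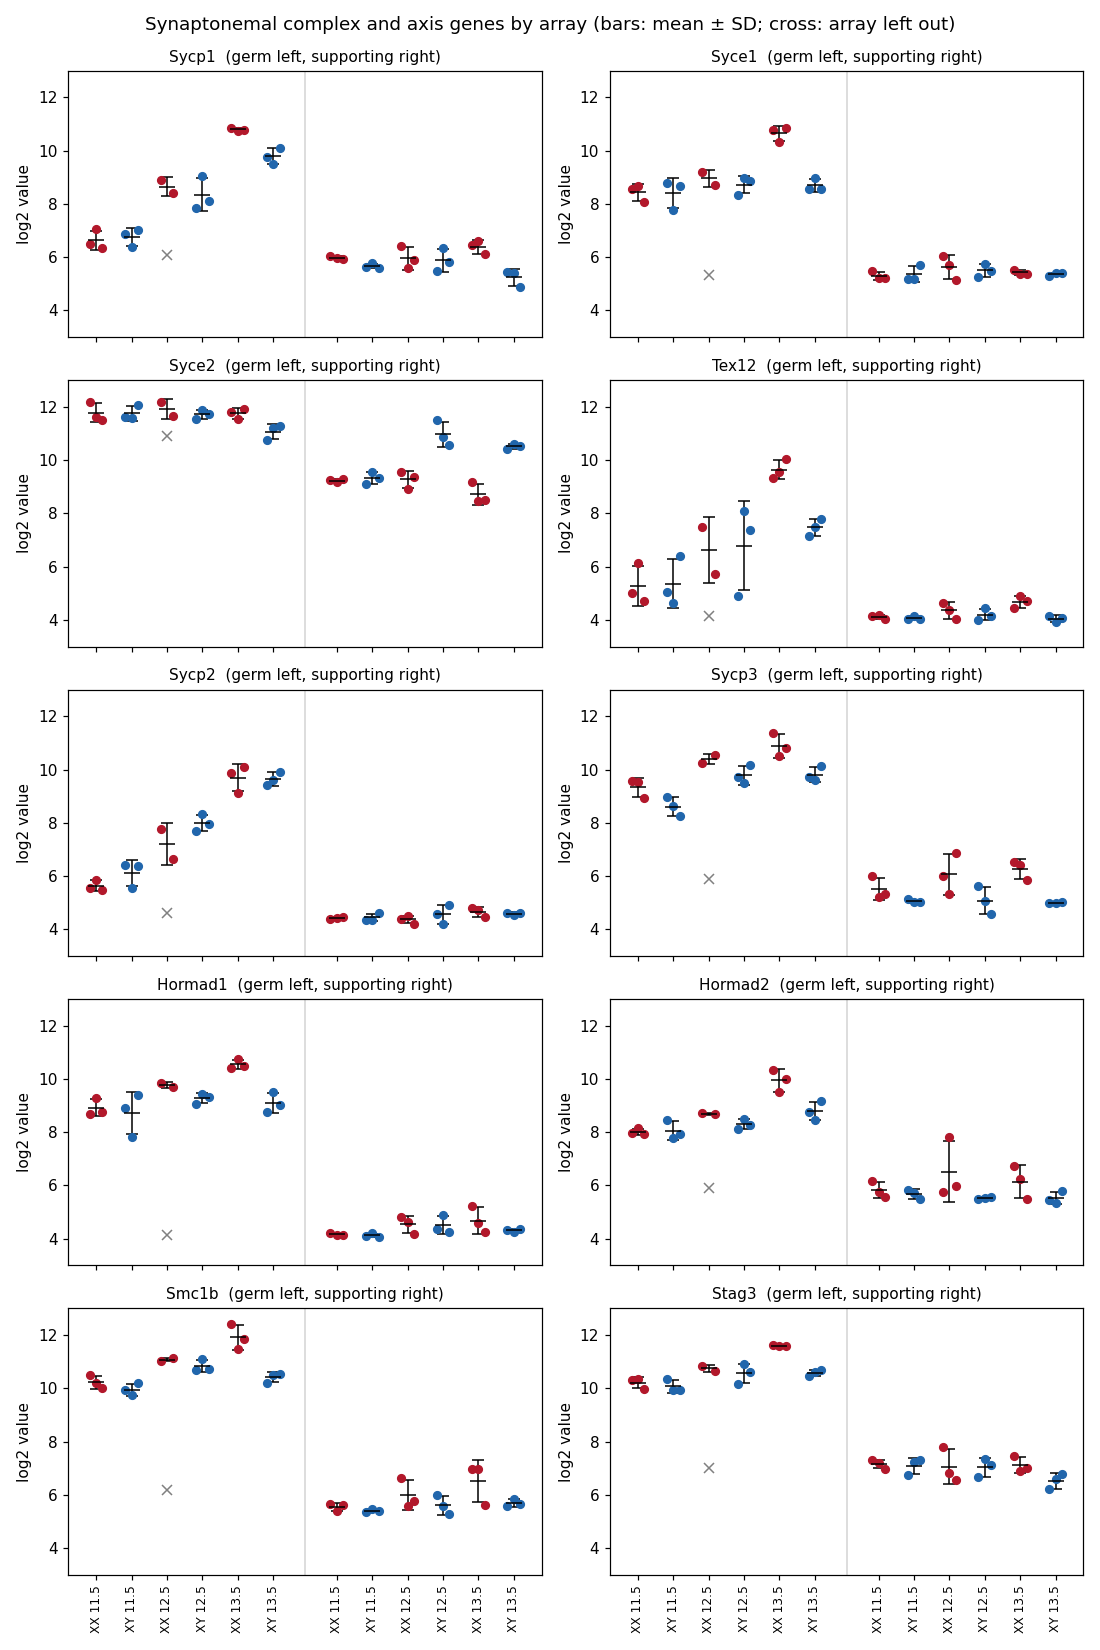
Log2 value of each gene in every array, by karyotype and stage in dpc, with germ cells left and supporting cells right of the grey line. Red points are XX arrays, blue points XY arrays, black bars the mean ± SD, and the grey cross is the array left out. Sycp1, Sycp2 and Tex12 climb in both sexes, and Syce2 is high in XY supporting cells at 12.5 and 13.5 dpc.

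Sycp1, the transverse filament, stood at 6.49, 7.04 and 6.36 in XX germ cells at 11.5 dpc, at 8.89 and 8.40 at 12.5 dpc, and at 10.86, 10.74 and 10.79 at 13.5 dpc. The XY germ cells stood at 6.86, 6.37 and 7.02, then at 7.86, 9.04 and 8.11, and then at 9.77, 9.49 and 10.10. The sexes overlapped at the first 2 stages, and at 13.5 dpc each XX array was above each XY array. Sycp1 averaged 10.80 ± 0.064 in XX and 9.79 ± 0.30 in XY at 13.5 dpc (SD, n = 3 each), which is 2.01-fold (log2 difference 1.01 ± 0.24 SE, adjusted p = 0.00337). Both sexes rose from 11.5 to 12.5 dpc, by 2.02 ± 0.27 in XX and 1.58 ± 0.24 in XY (SE), and again from 12.5 to 13.5 dpc, by 2.15 ± 0.27 in XX and 1.45 ± 0.24 in XY. The rise over the whole course was 1.13 ± 0.35 greater in XX, which did not pass (adjusted p = 0.0575). In the order of group means, the ranges of XX and XY at 12.5 dpc overlapped, as did those of XY and XX at 11.5 dpc and that of XX germ cells at 11.5 dpc with XX supporting cells at 13.5 dpc.

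Syce1 encodes a central element protein that binds SYCP1, and none of its stage differences passed in XY germ cells. Its XY values were 8.79, 7.77 and 8.68 at 11.5 dpc, 8.35, 8.97 and 8.85 at 12.5 dpc, and 8.55, 8.99 and 8.58 at 13.5 dpc. The XX values were 8.58, 8.67 and 8.07, then 9.19 and 8.72, and then 10.76, 10.32 and 10.86. Only the 3 XX arrays at 13.5 dpc stood apart, and the other 5 germ cell groups overlapped each neighbour in the order. Syce1 averaged 10.64 ± 0.29 in XX and 8.71 ± 0.24 in XY at 13.5 dpc (SD, n = 3 each), 3.83-fold (log2 difference 1.94 ± 0.23 SE, adjusted p = 1.55e-08). It rose in XX by 1.69 ± 0.26 (SE) from 12.5 to 13.5 dpc, and in XY the difference was -0.02 ± 0.23 (adjusted p = 0.992). The change of the sex difference itself passed both from 12.5 dpc (1.71 ± 0.35 SE, adjusted p = 0.00427) and from 11.5 dpc (1.91 ± 0.33, adjusted p = 1.39e-04).

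Tex12, the partner of SYCE2 in the central element, had the biggest fitted XX minus XY difference of the 10 genes and the widest spread. In XX germ cells it stood at 5.01, 6.12 and 4.71 at 11.5 dpc, at 7.50 and 5.74 at 12.5 dpc, and at 9.34, 9.56 and 10.03 at 13.5 dpc. XY germ cells stood at 5.04, 4.64 and 6.41, then at 4.91, 8.09 and 7.36, and then at 7.14, 7.48 and 7.80. All germ cell values at 11.5 dpc lay below the array medians of 6.54 to 7.01, so the rises below start from low values. At 12.5 dpc 1 XX array and 1 XY array were still near the values of 11.5 dpc, and at 13.5 dpc the sexes did not overlap. Tex12 averaged 9.64 ± 0.35 in XX and 7.47 ± 0.33 in XY at 13.5 dpc (SD, n = 3 each), 4.5-fold (log2 difference 2.17 ± 0.41 SE, adjusted p = 1.57e-04). From 11.5 to 13.5 dpc it rose by 4.36 ± 0.41 in XX and by 2.11 ± 0.41 in XY (SE). The rise was 2.26 ± 0.58 greater in XX (adjusted p = 0.0166), and with the 3 interleaved sets of table rows of each array brought to a common scale this was 1.83 (adjusted p = 0.0625).

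Syce2, the third central element gene measured, was the exception among the 10 in germ cells. Its XX values were 12.19, 11.63 and 11.51 at 11.5 dpc, 12.19 and 11.65 at 12.5 dpc, and 11.82, 11.52 and 11.92 at 13.5 dpc. Its XY values were 11.61, 11.60 and 12.09, then 11.54, 11.87 and 11.73, and then 10.74, 11.19 and 11.28. The first 5 germ cell groups in the order overlapped their neighbours, and the XY arrays at 13.5 dpc lay below all other germ cell arrays. Syce2 averaged 11.75 ± 0.21 in XX and 11.07 ± 0.29 in XY at 13.5 dpc (SD, n = 3 each; log2 difference 0.68 ± 0.22 SE, adjusted p = 0.0426). It fell by 0.69 ± 0.22 (SE) in XY germ cells between 11.5 and 13.5 dpc (adjusted p = 0.0472), and with the row sets aligned the difference was -0.30 (adjusted p = 0.216). That call was also lost without XY replicate 1 or 3 at 11.5 dpc or XY replicate 1 or 2 at 13.5 dpc. In XX germ cells the difference over the same interval was -0.02 ± 0.22 (adjusted p = 0.946). The call of the sex difference was lost without XX replicate 1 or 3 or without XY replicate 1 or 2 at 13.5 dpc, with differences of 0.52 to 0.74.

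Sycp2 and Sycp3 encode the axial element proteins. Sycp2 stood at 5.55, 5.87 and 5.49 in XX germ cells at 11.5 dpc, at 7.77 and 6.66 at 12.5 dpc, and at 9.87, 9.13 and 10.09 at 13.5 dpc. Its XY values were 6.43, 5.55 and 6.36, then at 7.70, 8.32 and 7.97, and then at 9.43, 9.60 and 9.91. The sexes overlapped at each stage, and at 12.5 dpc the XY mean was above the XX mean. All germ cell values at 11.5 dpc lay below the array medians of 6.54 to 7.01, so the rises below start from low values. Between 11.5 and 13.5 dpc Sycp2 rose by 4.06 ± 0.24 in XX, 16.7-fold, and by 3.53 ± 0.24 in XY, 11.6-fold (SE; adjusted p = 1.58e-18 and 2.43e-16). The XX minus XY difference was -0.48 ± 0.24 at 11.5 dpc, -0.79 ± 0.26 at 12.5 dpc and 0.05 ± 0.24 at 13.5 dpc (SE), and none passed. Without XX replicate 1 the difference at 12.5 dpc was -1.34 and passed (adjusted p = 0.0115), with 1 XX array left.

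Sycp3 stood at 9.56, 9.52 and 8.92 in XX germ cells at 11.5 dpc, at 10.25 and 10.53 at 12.5 dpc, and at 11.38, 10.50 and 10.81 at 13.5 dpc. The values in XY were 8.96, 8.62 and 8.26, then at 9.71, 9.48 and 10.17, and then at 9.71, 9.59 and 10.12. XY arrays at 12.5 and 13.5 dpc overlapped, and the XX arrays at 12.5 and 13.5 dpc lay above every XY array. Sycp3 averaged 10.90 ± 0.45 in XX and 9.81 ± 0.28 in XY at 13.5 dpc (SD, n = 3 each), 2.13-fold (log2 difference 1.09 ± 0.27 SE, adjusted p = 0.00433). It rose by 1.57 ± 0.27 in XX and by 1.20 ± 0.27 in XY between 11.5 and 13.5 dpc (SE), and the rise differed by 0.37 ± 0.38 between the sexes (adjusted p = 0.721). Without XX replicate 1 at 13.5 dpc the sex difference was 0.85 (adjusted p = 0.0569).

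Hormad1 and Hormad2 encode the HORMA domain proteins of the unsynapsed axis. Hormad1 stood at 8.69, 9.29 and 8.77 in XX germ cells at 11.5 dpc, at 9.85 and 9.70 at 12.5 dpc, and at 10.40, 10.73 and 10.50 at 13.5 dpc. For XY germ cells the values were 8.93, 7.84 and 9.40, then at 9.07, 9.42 and 9.34, and then at 8.76, 9.51 and 9.02. The XX arrays lay above the XY arrays at 12.5 and 13.5 dpc and overlapped them at 11.5 dpc. Hormad1 averaged 10.55 ± 0.17 in XX and 9.10 ± 0.38 in XY at 13.5 dpc (SD, n = 3 each), 2.73-fold (log2 difference 1.45 ± 0.25 SE, adjusted p = 3.31e-05). The rise in XX germ cells from 11.5 to 13.5 dpc was 1.63 ± 0.25 (SE), and it was 1.25 ± 0.35 greater than in XY (adjusted p = 0.0323). The XY difference over that interval was 0.37 ± 0.25 (adjusted p = 0.564), and with the row sets aligned it was 0.50 and passed (adjusted p = 0.0451). From 11.5 to 12.5 dpc the XY difference was 0.55 ± 0.25 (adjusted p = 0.438), and 0.68 with the row sets aligned (adjusted p = 0.0190).

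Hormad1 has 2 annotated probe sets. The one used here is numbered among probe sets of other genes on chromosome 6 (11 of the 11 neighbours with a known place), while the other is numbered among probe sets on chromosome 3 (11 of 12), where the Hormad1 gene lies. With the other probe set the XX minus XY difference at 13.5 dpc was 1.19 ± 0.29 (SE, adjusted p = 0.00325), which also passed. Its difference in XX germ cells between 11.5 and 13.5 dpc was 0.63 ± 0.29 (adjusted p = 0.138), and the change of the sex difference was 1.03 ± 0.41 (adjusted p = 0.195), neither of which passed. Whether the 2 probe sets differ in these values was not tested. Both probe sets were higher in germ than in supporting cells in all 6 karyotype and stage pairs. The probe sequences were not used here, so which transcript each probe set detects was not tested.

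The sister gene Hormad2 rose in XX germ cells. In XX germ cells it stood at 7.97, 8.14 and 7.92 at 11.5 dpc, at 8.73 and 8.67 at 12.5 dpc, and at 10.35, 9.50 and 9.99 at 13.5 dpc. In XY germ cells it stood at 8.45, 7.78 and 7.94, then at 8.14, 8.50 and 8.26, and then at 8.76, 8.47 and 9.17. The XX arrays were above the XY arrays at 12.5 and at 13.5 dpc, and at 11.5 dpc they overlapped. It averaged 9.95 ± 0.43 in XX and 8.80 ± 0.35 in XY at 13.5 dpc (SD, n = 3 each), 2.22-fold (log2 difference 1.15 ± 0.30 SE, adjusted p = 0.00617). The rise in XX was 1.93 ± 0.30 (SE) from 11.5 to 13.5 dpc, and the XY difference of 0.74 ± 0.30 did not pass (adjusted p = 0.145). The sex difference lost its call without XX replicate 1 (0.94, adjusted p = 0.0561) or XY replicate 2 (0.98, adjusted p = 0.0638).

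Smc1b and Stag3 encode the meiotic cohesin subunits. Smc1b stood at 10.49, 10.19 and 10.00 in XX germ cells at 11.5 dpc, at 11.03 and 11.13 at 12.5 dpc, and at 12.41, 11.47 and 11.86 at 13.5 dpc. Smc1b in XY germ cells stood at 9.93, 9.74 and 10.19, then at 10.68, 11.10 and 10.73, and then at 10.20, 10.50 and 10.55. In XY the arrays at 13.5 dpc lay below those at 12.5 dpc, a difference of -0.42 ± 0.25 (SE) that did not pass (adjusted p = 0.573). Smc1b averaged 11.91 ± 0.47 in XX and 10.42 ± 0.19 in XY at 13.5 dpc (SD, n = 3 each), 2.81-fold (log2 difference 1.49 ± 0.25 SE, adjusted p = 2.69e-05). The rise from 11.5 to 13.5 dpc was 1.69 ± 0.25 in XX and 1.22 ± 0.36 greater than in XY (SE, adjusted p = 0.0448). That difference in rise lost its call in 9 of the 12 fits without 1 of the arrays compared.

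Stag3 had the tightest XX arrays at 13.5 dpc, at 11.61, 11.58 and 11.58. It stood at 10.31, 10.35 and 9.98 in XX germ cells at 11.5 dpc and at 10.84 and 10.66 at 12.5 dpc. Stag3 in XY germ cells stood at 10.35, 9.93 and 9.93, then at 10.17, 10.92 and 10.60, and then at 10.45, 10.61 and 10.69. All XX arrays at 13.5 dpc were above every other germ cell array. Stag3 averaged 11.59 ± 0.018 in XX and 10.58 ± 0.12 in XY at 13.5 dpc (SD, n = 3 each), 2.02-fold (log2 difference 1.01 ± 0.23 SE, adjusted p = 0.00185). It rose by 1.38 ± 0.23 (SE) in XX between 11.5 and 13.5 dpc, and the XY difference of 0.51 ± 0.23 did not pass (adjusted p = 0.243).

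**Figure D4:**
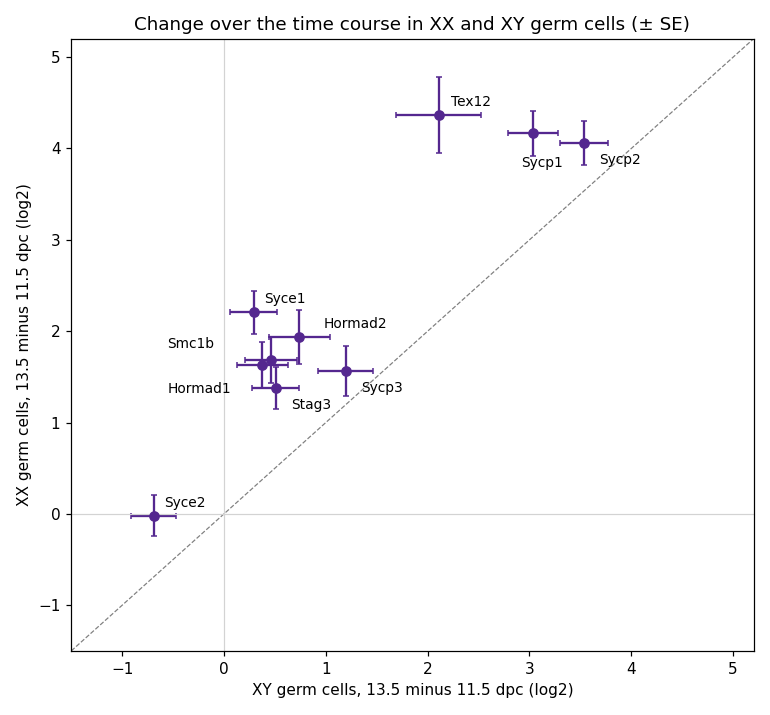
Change between 11.5 and 13.5 dpc in XX germ cells (vertical axis) against that in XY germ cells (horizontal axis), in log2, with bars of 1 SE to each side and a dashed line where the changes are equal. All 10 points lie above the line. Sycp1, Sycp2 and Tex12 lie far to the right, with XY rises of 3.04, 3.53 and 2.11.

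The steps between stages were also tested one at a time. From 11.5 to 12.5 dpc, 2 of 10 rose in XX germ cells, Sycp1 and Sycp2 (0.948% of all genes rose), and 3 of 10 rose in XY germ cells, Sycp1, Sycp2 and Sycp3 (0.732% of all genes). The XX difference of Sycp2 was 1.02 without XX replicate 1 at 12.5 dpc. Sycp3 lost its XY call without XY replicate 3 at 11.5 dpc or XY replicate 3 at 12.5 dpc. Tex12 gained an XY call without XY replicate 3 at 11.5 dpc or XY replicate 1 at 12.5 dpc. From 12.5 to 13.5 dpc, 6 of 10 rose in XX (Sycp1, Syce1, Tex12, Sycp2, Hormad2 and Stag3; 1.63% of all genes) and 2 of 10 in XY (Sycp1 and Sycp2; 0.858%). With the arrays centred on their medians, Hormad1 and Smc1b also rose in that XX step, for 8 of 10. In the values as deposited, the Stag3 call there was lost without XX replicate 2 or 3 at 13.5 dpc. The Hormad2 call was lost without XX replicate 3, and Smc1b gained a call without XX replicate 2 at 13.5 dpc. With 1 XX array left at 12.5 dpc, Stag3 differed by 0.93 or 0.76 and Hormad2 by 1.28 or 1.22. The change of the sex difference passed for 0 of 10 genes from 11.5 to 12.5 dpc, with 0.145% of all genes called in either direction and 0 of the 10 at an unadjusted p under 0.05. It passed upward for 2 of 10 from 12.5 to 13.5 dpc, Syce1 and Tex12 (0.336% of all genes), and for 4 of 10 from 11.5 to 13.5 dpc, Syce1, Tex12, Hormad1 and Smc1b (1.65% of all genes). These stage comparisons share their arrays, so their counts are not independent of each other.

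The genes were higher in germ cells than in supporting cells from the first stage on. Germ and supporting cells also differed in reporter line and strain, so cell type, reporter and strain cannot be told apart in these comparisons. At 11.5 dpc 10 of 10 were higher in germ cells in XX (17.4% of all genes were) and 10 of 10 in XY (20.3% of all genes). The same count of 10 was reached at 12.5 dpc in XX (14.7% of all genes) and in XY (14.7%), and at 13.5 dpc in XX (14.8%). In XY at 13.5 dpc 9 of 10 passed (14.3% of all genes), and Syce2 did not, at 0.56 ± 0.22 (SE, adjusted p = 0.0606). The median germ minus supporting difference of the 10 genes was 2.80 at 11.5 dpc, 3.08 at 12.5 dpc and 4.80 at 13.5 dpc in XX, and 2.71, 3.32 and 4.30 in XY. The smallest differences at 11.5 dpc in XX were those of Sycp1, 0.65 ± 0.24 (adjusted p = 0.0425), and Tex12, 1.16 ± 0.41 (adjusted p = 0.0289), and both calls were lost with the arrays centred. Without any 1 of the XX supporting arrays of that stage both calls were also lost. So was that of Sycp1 without XX germ cell replicate 1 or 2, and that of Tex12 without replicate 2. In XY at 11.5 dpc Tex12 lost its call without germ cell replicate 3 (0.76, adjusted p = 0.262). Syce2 in XY lost its call at 12.5 dpc without supporting cell replicate 3, and gained one at 13.5 dpc without germ cell replicate 1. At the same stage Hormad1 was 27.0-fold and Smc1b 25.5-fold higher in XX germ than in XX supporting cells. With the other Hormad1 probe set, the one numbered among chromosome 3 probe sets, that difference was 5.28-fold.

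Among supporting cells, Syce2 had the biggest fitted differences of the 10 genes. It stood at 9.25, 9.16 and 9.28 in XX supporting cells at 11.5 dpc, at 9.55, 8.91 and 9.37 at 12.5 dpc, and at 9.17, 8.46 and 8.52 at 13.5 dpc. In XY supporting cells it stood at 9.10, 9.57 and 9.31, then at 11.49, 10.86 and 10.58, and then at 10.40, 10.60 and 10.54. The sexes overlapped at 11.5 dpc and were apart at both later stages, where the XY values approached those of germ cells. The XX minus XY difference was -1.70 ± 0.22 (SE) at 12.5 dpc (adjusted p = 3.74e-08) and -1.80 ± 0.22 at 13.5 dpc (adjusted p = 9.82e-09), so that Syce2 was the 1 gene of 10 lower in XX supporting cells at each of these stages (8.49% of all genes at 12.5 dpc and 7.21% at 13.5 dpc). In XY supporting cells it rose by 1.19 ± 0.22 from 11.5 to 13.5 dpc (adjusted p = 1.14e-04), the 1 gene of 10 to do so (6.6% of all genes). The reporter line and strain of XY supporting cells changed between the same stages, so sex, stage, reporter and strain cannot be told apart here. The log2 of the summed level of the 8 germ cell markers in XY supporting arrays ran from 9.03 to 9.36 at 11.5 dpc, from 9.16 to 9.45 at 12.5 dpc and from 9.50 to 9.56 at 13.5 dpc, against 13.1 to 13.8 in germ cell arrays. Their part in the Syce2 values was not tested.

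Differences of the opposite sign were smaller. At 12.5 and 13.5 dpc reporter line and strain also differed between XX and XY supporting cells. Sex, reporter and strain cannot be told apart there. At 12.5 dpc Sycp3 and Hormad2 were higher in XX than in XY supporting cells, 2 of 10 (4.89% of all genes), and at 13.5 dpc Sycp1, Sycp3 and Smc1b were, 3 of 10 (5.02% of all genes). At 11.5 dpc 0 of 10 differed, with 3.33% of all genes called in either direction and 0 of the 10 at an unadjusted p under 0.05. Hormad2 at 12.5 dpc stood at 5.74, 7.84 and 5.99 in XX and at 5.49, 5.55 and 5.57 in XY, and without XX replicate 2 the difference was 0.33 (adjusted p = 0.591), against 0.99 with it. Its call was also lost without XY replicate 1, at 0.96 (adjusted p = 0.0611). The Sycp3 difference at 12.5 dpc was 0.58 (adjusted p = 0.207) without XX replicate 3 and 0.73 (adjusted p = 0.112) without XY replicate 3, against 0.98 with all arrays. At 13.5 dpc Sycp3 stood at 6.53, 6.42 and 5.84 in XX, against 4.98, 4.97 and 5.03 in XY and the groups did not overlap (difference 1.27 ± 0.27 SE, adjusted p = 4.42e-04). Sycp1 at that stage stood at 6.46, 6.61 and 6.10 in XX, against 5.46, 5.39 and 4.87 in XY (difference 1.15 ± 0.24 SE, adjusted p = 3.91e-04).

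Smc1b at 13.5 dpc stood at 6.98, 6.97 and 5.62 in XX supporting cells, against 5.58, 5.85 and 5.65 in XY supporting cells, and its difference of 0.83 ± 0.25 (SE, adjusted p = 0.0208) lost its call without XX replicate 1 (0.60) or 2 (0.60) and without XY replicate 1 (0.77) or 3 (0.80). It also rose by 0.97 ± 0.25 in XX supporting cells from 11.5 to 13.5 dpc (adjusted p = 0.0130), the 1 gene of 10 to rise there (2.37% of all genes), a call lost without XX replicate 1 or 2 at 13.5 dpc or XX replicate 2 at 11.5 dpc. The germ cell markers' median in the same 3 XX arrays at 13.5 dpc was 6.60, 5.78 and 5.91, against 5.93, 5.88 and 6.05 in XY, so the first array was high and the second was not. The log2 of the markers' summed level ran from 9.41 to 9.99 in XX and from 9.50 to 9.56 in XY at 13.5 dpc, with 5 of the 8 markers higher on average in XX and 1 past the test. What part those transcripts have in the low values of supporting cells was not tested. In the XX minus XY difference at 13.5 dpc, sex cannot be told apart from reporter line and strain.

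The other structural genes of the axis and complex were measured for 6 of the 7 listed. In germ cells at 13.5 dpc 3 of 6 were higher in XX than in XY, with a median of 0.63 (3.93% of all genes were higher, and the median of all genes was -0.07). They were Rec8, the meiotic kleisin (2.40 ± 0.23 SE, adjusted p = 2.77e-11), Rad21l, another meiotic kleisin (1.57 ± 0.26, adjusted p = 1.40e-05), and Iho1, whose product works with HORMAD1 in double-strand break formation (0.78 ± 0.19, adjusted p = 0.00431). At 13.5 dpc Rad21l ran from 5.24 to 7.42 in XX and from 4.47 to 4.93 in XY germ cells. Iho1 ran from 5.15 to 5.85 in XX and from 4.59 to 5.07 in XY, where array medians were 6.54 to 7.01. Trip13, the enzyme that strips HORMADs from synapsed axes, was at -0.58 ± 0.20 and did not pass (adjusted p = 0.0532). Rec8 was the 1 of these 6 higher in XX at 12.5 dpc, by 1.12 ± 0.26 (SE, adjusted p = 0.00968), where 1.8% of all genes differed. It stood at 6.90 and 7.86 in XX, against 6.10 to 6.46 in XY. Without XX replicate 2 the difference was 0.64 (adjusted p = 0.522), and without XY replicate 2 it was 1.03 (adjusted p = 0.0742).

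Of 14 cohesin subunits and regulators that also serve mitosis, 1 was higher in XX than in XY germ cells at 13.5 dpc and 0 were lower, with a median of 0.04. Both counts are near the shares of all genes, 3.93% higher and 5.28% lower. The 1 gene was Esco2, an acetyltransferase of the SMC3 subunit (0.91 ± 0.24 SE, adjusted p = 0.0074), and it fell in XY by 1.07 ± 0.24 from 11.5 to 13.5 dpc while XX differed by -0.04 ± 0.24. The Esco2 call was lost without XX replicate 1 (0.77, adjusted p = 0.0509) or XY replicate 2 (0.79, adjusted p = 0.0625). Smc1a and Stag2, mitotic counterparts of Smc1b and Stag3, differed by 0.08 ± 0.19 and -0.06 ± 0.20 between XX and XY at 13.5 dpc (SE, adjusted p = 0.876 and 0.923). From 11.5 to 13.5 dpc Stag2 rose by 1.42 ± 0.20 in XX and by 0.94 ± 0.20 in XY germ cells (SE, adjusted p = 5.33e-07 and 9.56e-04). Smc1a differed by -0.26 ± 0.19 in XX and -0.17 ± 0.19 in XY over that interval, and neither passed.

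Genes that tie meiotic telomeres to the nuclear envelope were measured for 6 of 7, and 3 of 6 were higher in XX germ cells at 13.5 dpc, with a median of 0.73 (3.93% of all genes). Terb1 differed by 3.26 ± 0.23 (SE, adjusted p = 1.05e-15), Majin by 1.25 ± 0.23 (adjusted p = 9.66e-05) and Terb2 by 0.90 ± 0.20 (adjusted p = 0.00113), and their products form the complex that joins telomere to membrane. In XY germ cells Terb1 differed by 0.01 ± 0.23 between 11.5 and 13.5 dpc (SE, adjusted p = 0.994), and Sycp1 rose there by 3.04 ± 0.24. Terb1 in XY ran from 4.79 to 5.50 at 11.5 dpc and from 4.81 to 5.60 at 13.5 dpc. These values lay below the array medians of 6.54 to 7.01, and whether a change would be seen there was not tested.

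Genes of meiotic entry were measured for 4 of 5, and 3 of 4 were higher in XX germ cells at 13.5 dpc, with a median of 2.79 (3.93% of all genes). Stra8, the retinoic acid induced factor that opens meiotic prophase, differed by 4.64 ± 0.21 (SE, adjusted p = 6.06e-23), Meioc by 4.55 ± 0.29 (adjusted p = 2.68e-17) and Ythdc2, an RNA helicase that acts with MEIOC, by 1.05 ± 0.32 (adjusted p = 0.0266). The Ythdc2 call was lost in 5 of the 6 fits without 1 of the arrays compared, with differences of 0.90 to 1.10. At 12.5 dpc 2 of 4 passed, where 1.8% of all genes differed. Stra8 stood at 6.87 and 8.05 in XX, against 5.59 to 5.84 in XY (difference 1.76 ± 0.24 SE, adjusted p = 1.73e-06), and without XX replicate 1 the difference was 1.17 (adjusted p = 0.0117). Meioc stood at 5.56 and 8.05 in XX, against 5.25 to 5.80 in XY, so that 1 of the 2 XX arrays lay within the XY range. Its difference of 1.24 ± 0.33 (SE, adjusted p = 0.0299) rested on the other array, XX replicate 1, without which it was -0.0032 (adjusted p = 0.996). The Meioc call was also lost without XY replicate 1 (1.28, adjusted p = 0.0613) or XY replicate 2 (1.09, adjusted p = 0.199). In XY germ cells Stra8 differed by 0.17 ± 0.21 and Meioc by 0.27 ± 0.29 between 11.5 and 13.5 dpc (SE, adjusted p = 0.855 and 0.819), while Sycp1, Sycp2, Tex12 and Sycp3 rose. At these stages Stra8 in XY ran from 5.17 to 5.68 and then from 5.11 to 5.81. Meioc ran from 4.62 to 5.27 and then from 4.95 to 5.52. All lay below the array medians of 6.54 to 7.01.

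Across the 12 group means the 10 genes correlated with each other at Pearson's r of 0.58 to 0.998, with a median of 0.893 over 45 pairs. The groups share cell type as a strong common factor, so these values describe the profiles only. Sycp1 and Sycp2 correlated at 0.972, Hormad1 and Smc1b at 0.998, and the lowest pair was Sycp1 with Syce2. Over the 6 germ cell groups alone, Syce2 ran from -0.57 with Sycp2 to 0.25 with Hormad1. Outside the 10, the genes whose 12 group means were most like the mean of the 10 were Slc25a31 (r = 0.996), Gm4779 (0.992), Mael (0.991), Alms1 (0.991) and 2310061I04Rik (0.989). Gene by gene, the nearest profile was Tex12 for Sycp1 (0.982), Rec114 for Syce1 (0.994), Dnmt1 for Syce2 (0.995), Hfm1 for Tex12 (0.993), Brdt for Sycp2 (0.990), Smc1b for Sycp3 (0.993), Map7d2 for Hormad1 (0.998) and Stag3 (0.996), 2310061I04Rik for Hormad2 (0.985) and Hormad1 for Smc1b (0.998).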

How the data were processed

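Sorted cells were profiled on Affymetrix Mouse Gene 1.0 ST arrays. The authors deposited log2 expression values per probe set, and the submitters' processing notes name RMA as the method. The RMA version was not stated there. Of 35557 probe sets, 21789 had 1 gene symbol in the platform annotation, which gave 19938 genes after the highest-mean probe set was kept for each. In 35 of 36 arrays the probe sets fall into 3 interleaved sets of table rows, each on its own linear scale, with set medians up to 0.751 apart within an array (median 0.298). The deposited values were used as they stand, and bringing the sets to a common scale was an alternative. What caused the sets is unknown.

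Genes were fitted with limma 3.58.1 in R 4.3.3 as 12 group means over 35 arrays with 23 residual degrees of freedom, then empirical Bayes. The two-sided p-values of 23 comparisons were adjusted by Benjamini-Hochberg over all genes, and an adjusted p under 0.05 is called passing. SE is the moderated error of a difference, and the fit was tested on simulated data. The number of arrays limits the precision. Without a known scan date or slide, the fit has no batch term. Alternatives were all 36 arrays, arrays centred on their medians, quantile normalisation, row sets aligned, dim genes left out (mean under the median gene), the mean of probe sets, array weights, only the groups compared, a replicate block and each array left out in turn. Using the other Hormad1 probe set, and leaving out each array for list genes, were added after seeing the data.

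The rule for named genes was all 10 members, list genes past the test in XX minus XY germ cells at 13.5 dpc, and the nearest profiles over 12 group means. The lists are other axis genes, cohesins used in mitosis, telomere attachment and meiotic entry, and Smc1a, Stag2 and Trip13 were named after their values were seen. Members and lists were chosen with earlier results of these data known. Syce3, Spdya and Meiosin were not analysed here.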

Additional observations from a re-analysis of the deposited data

Results flagged for a closer look

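The change of the XX minus XY difference in germ cells passed its own test for 4 genes. From 12.5 to 13.5 dpc it was 1.71 for Syce1 and 2.34 for Tex12. From 11.5 to 13.5 dpc it was 1.91 for Syce1, 2.26 for Tex12, 1.25 for Hormad1 and 1.22 for Smc1b. Each of these is a difference between XX and XY germ cells under the same stage contrast. Syce1 from 11.5 dpc kept its call without any 1 array, while the calls of Tex12, Hormad1 and Smc1b from 11.5 dpc were lost in 5, 8 and 9 of the 12 such fits. From 12.5 dpc, the Syce1 call was lost without XX replicate 2 at 12.5 dpc (1.47, adjusted p = 0.113), and the Tex12 call was lost in 8 fits without 1 array.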

How the results depend on the processing

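Of 3731 values of single genes under the alternatives, 3549 stayed on their side of the threshold, 137 lost a call and 45 gained one. The sign turned for 149 of the 3549, none of them called in either fit, and for 0 values called in either fit. With all 36 arrays, which put the left-out array among XX germ cells at 12.5 dpc, 1 of 10 genes passed for XX minus XY germ cells at 12.5 dpc (0 without it) and 2 at 13.5 dpc (9), 0 rose in XX from 11.5 to 12.5 dpc (2) and 5 from 11.5 to 13.5 dpc (9), 1 changed in XY from 12.5 to 13.5 dpc (2) and 3 from 11.5 to 13.5 dpc (5), 0 had a change of sex difference from 11.5 to 13.5 dpc (4), 1 differed between XX and XY supporting cells at 12.5 dpc (3) and 1 at 13.5 dpc (4), and 0 changed in XX supporting cells (1). That array adds its spread to every test. Leaving out dim genes drops Tex12, Sycp2 and Hormad1 from the test, and left 1 for XX 11.5 to 12.5 dpc, 1 and 3 for XY 12.5 to 13.5 and 11.5 to 13.5 dpc, and 1 and 2 for the change of sex difference from 12.5 and from 11.5 dpc. The change of sex difference from 12.5 dpc also came to 1 with arrays centred, quantile normalisation, row sets aligned or array weights (2 as reported). For XX minus XY germ cells at 13.5 dpc (9 as reported), array weights gave 6, dim genes left out 7 and only the groups compared 8. With array weights, 27% of all genes were lower in XX there and their median was -0.28, against 5.28% and -0.07 as reported. Array weights also gave 4 for XX 12.5 to 13.5 dpc (6 as reported). Row sets aligned gave 4 for XX 11.5 to 12.5 dpc and 2 each for the stage change of XX and XY supporting cells, and array weights gave 3 and 2 for the last pair (1 each as reported). Only the groups compared gave 0 for XX and 5 for XY from 11.5 to 12.5 dpc. For these the cause was not tested, other than the arrays and genes added or dropped.

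Without 1 array at a time, the counts ran from 0 to 1 for XX minus XY germ cells at 12.5 dpc and 6 to 9 at 13.5 dpc, 1 to 2, 4 to 6 and 9 to 9 for XX 11.5 to 12.5, 12.5 to 13.5 and 11.5 to 13.5 dpc, 2 to 4, 2 to 2 and 4 to 5 for the same XY steps, 0 to 2 and 1 to 5 for the change of sex difference from 12.5 and from 11.5 dpc, 8 to 10 for germ minus supporting cells, 2 to 3 and 3 to 5 for supporting cells at 12.5 and 13.5 dpc, and 0 to 1 and 1 to 1 for their XX and XY stage change. Where 1 array was left in a group, its spread was taken from the other groups. Replicate numbers did not pair samples: of 55 pairs of groups with 3 shared numbers, 2 had every correlation of deviations over 0.1. A replicate block added 1 call, Smc1b in XX from 12.5 to 13.5 dpc, for 7 against 6, and changed no other count. The other Hormad1 probe set, chosen after seeing the data, kept each count within 1.5 times.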
